A study of Urocitellus parryii with 3 samples.

Results

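miR-320a-3p was followed in 3 liver small RNA libraries of Urocitellus parryii, the arctic ground squirrel, which hibernates in bouts of torpor separated by short arousals. It was chosen by a measured value, its low late torpor to post-reproduction ratio in earlier results of these data, so its ratios between the stages are a description and not a finding. A read counted as miR-320a-3p when its first 18 bases were those of the miRNA. Counting each distinct read sequence once per stage gave 696540 entries. Of these entries, 2657 met this rule, from 2122 distinct sequences, and they held 14136 of 17086590 placed reads. Each stage gave 1 library, made from the mixed liver RNA of its animals. The early arousal library held RNA of 4 animals and the late torpor library RNA of 4 animals, all hibernating animals kept at 4 h light and 20 h dark. The post-reproduction library held RNA of 6 summer animals at normal body temperature, which served as the non-hibernating control. Housing at 16 h light and 8 h dark is given for animals outside the hibernating group. Season, light cycle and the hibernating state cannot be told apart where a library is set against post-reproduction. With 1 library per stage there is no replicate spread and no test, and a ratio compares libraries rather than stages. All intervals are exact 95% intervals for counting error alone. PCR reads carry no molecular identifiers, so reads are not independent molecules.

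Most miRNAs are cut from a long primary transcript by Drosha with its partner DGCR8, exported, and cut again by Dicer. miR-320 is a well known exception. In mouse its hairpin forms directly at a transcription start, carries a 5′ cap, leaves the nucleus through exportin 1 and reaches Dicer without Drosha, and the 3p arm is the one loaded into Argonaute. The miRNA is conserved in mammals, and in other tissues it has been reported to repress the mRNA of muscle phosphofructokinase, an enzyme of glycolysis.

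The sequence is shown because every count given here rests on its start and end. It is the first 22 bases of the most abundant read that begins with an A and the miR-320 seed, written as DNA with T in place of U. Capitals mark the seed, bases 2 to 8, which governs target pairing.
miR-320a-3p: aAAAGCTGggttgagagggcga

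All 2657 entries were placed at 1 position only, on the minus strand of GeneScaffold 4354, from 158394 to 158415 for the 22 nt form. The genome build of these scaffolds is not stated in the sources used, and no gene annotation of them was used. In human, relatives of miR-320a share this start, but no entry here was placed elsewhere. Just outside the rule, reads with 1 mismatch in the first 18 bases numbered 46 in early arousal, 33 in late torpor and 52 in post-reproduction.

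miR-320a-3p was read 4517 times in early arousal, 3607 times in late torpor and 6012 times in post-reproduction. The libraries held 5611673 placed reads in early arousal, 5860476 in late torpor and 5614441 in post-reproduction. In CPM, the count per 1000000 placed reads, the level was 805 in early arousal (interval 782 to 829), 615 in late torpor (596 to 636) and 1071 in post-reproduction (1044 to 1098). On this plain scale post-reproduction was the highest and late torpor the lowest, and the 3 intervals did not overlap. After scaling by trimmed mean of M-values (TMM), which corrects for a few very abundant RNAs, the levels were 686 CPM in early arousal (666 to 706), 706 CPM in late torpor (683 to 729) and 1097 CPM in post-reproduction (1069 to 1125). On this scale both hibernation libraries lay below post-reproduction, and their intervals overlapped with each other. In tissue RNA, fewer cells with the miRNA and less of it per cell cannot be told apart.

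**Figure D1:**
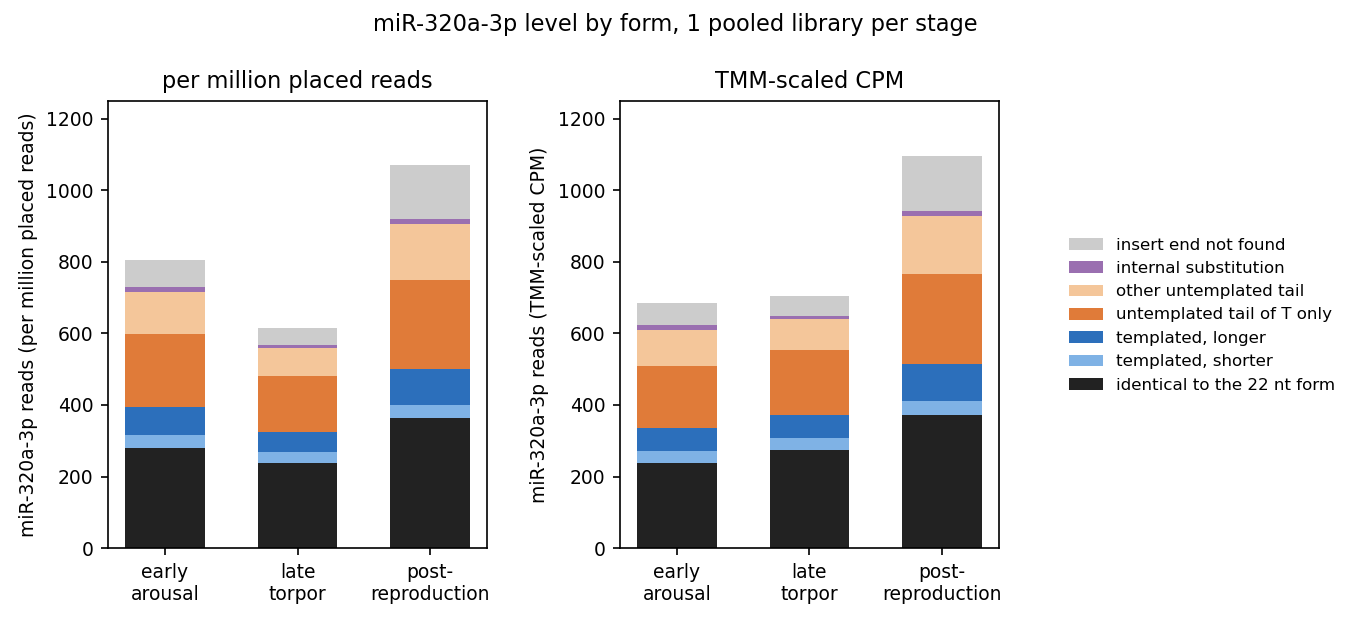
Level of miR-320a-3p in the early arousal, late torpor and post-reproduction libraries, in plain CPM (left) and TMM-scaled CPM (right), with each bar divided by the form of the read. Post-reproduction is the highest bar on both scales (1071 and 1097), while early arousal is above late torpor on the left (805 against 615) and near it on the right (686 against 706).

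Tissue identity was checked by the most abundant start in the table, that of the hepatocyte miRNA miR-122-5p, which took 72.4% of placed reads in early arousal, 76.3% in late torpor and 74.9% in post-reproduction. Markers of other cells, found by their first 9 bases, were present in each library. The 3 red-cell miRNAs (miR-451a, miR-144-3p and miR-486-5p) summed to 116 TMM-scaled CPM in early arousal, 312 in late torpor and 175 in post-reproduction. The 2 leukocyte miRNAs (miR-142-5p and miR-223-3p) summed to 51.9 CPM in early arousal, 91.2 in late torpor and 49.4 in post-reproduction. The 2 mesenchymal miRNAs (miR-199a-3p and miR-143-3p) summed to 3755 CPM in early arousal, 3624 in late torpor and 4111 in post-reproduction. Members of a sum could differ. For early arousal against post-reproduction the ratio was 1.04 for miR-451a, 0.504 for miR-144-3p and 0.432 for miR-486-5p. It was 0.806 for miR-199a-3p and 1.04 for miR-143-3p. The leukocyte sum was almost all miR-142-5p, since miR-223-3p had 6 reads in early arousal, 12 in late torpor and 14 in post-reproduction. All 7 markers were found in every library, and their part in the level of miR-320a-3p was not tested.

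The ratio of TMM-scaled counts was 0.625 for early arousal against post-reproduction (0.601 to 0.650) and 0.644 for late torpor against post-reproduction (0.617 to 0.671). Both comparisons use the same post-reproduction library and share whatever is particular to it. For early arousal against late torpor the ratio was 0.971, with an interval of 0.930 to 1.02 that holds 1. In plain CPM, the ratio was 0.752 for early arousal against post-reproduction (0.723 to 0.781), 0.575 for late torpor against post-reproduction (0.551 to 0.599) and 1.31 for early arousal against late torpor (1.25 to 1.37). The level was thus lower in both hibernation libraries on either scale, but the order of early arousal and late torpor depended on the scale. Plain scaling in place of TMM shifts every log2 ratio in the table by 0.27 for early arousal against post-reproduction, by -0.16 for late torpor against post-reproduction and by 0.43 for early arousal against late torpor.

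Many RNAs in the table showed differences of this size. Reads were grouped by their first 18 bases, and groups with at least 100 reads over the libraries compared were kept. In early arousal 23.4% of 607 such groups were at least 1.5-fold lower than in post-reproduction, as was miR-320a-3p under TMM scaling, and 123 groups had a lower ratio than it. In early arousal miR-320a-3p did not pass 1.5-fold in plain CPM (log2 ratio -0.41), in plain CPM without the miR-122-5p start (-0.55), with exact adapters only (-0.39) or with TMM over 64 abundant groups (-0.54). In late torpor 27.4% of 580 groups were at least 1.5-fold lower than in post-reproduction, again with miR-320a-3p among them under TMM scaling, and 151 groups had a lower ratio. In late torpor it did not pass 1.5-fold with TMM over the 64 groups (-0.55), with identical reads and templated length variants (-0.46) or with identical reads alone (-0.44), and the upper end of its main interval, -0.58 on the log2 scale, also fell short. For early arousal against late torpor, 17.9% of 586 groups were at least 1.5-fold higher, which miR-320a-3p was not. Against post-reproduction, the median log2 ratio over all groups was 0.00 for early arousal, with quartiles at -0.51 and 0.48, and 0.01 for late torpor, with quartiles at -0.69 and 0.51. The log2 ratio of miR-320a-3p was -0.68 for early arousal, below the lower quartile, and -0.64 for late torpor, between the quartiles.

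By abundance, the miR-320a-3p start ranked 32 among all start groups in early arousal, 35 in late torpor and 28 in post-reproduction. Next above it in early arousal stood a group of 4902 reads that resembles miR-122-5p. In late torpor it was the start of miR-181a-5p with 3734 reads, and in post-reproduction a start of miR-140-3p with 6210 reads. Next below stood 1 group both in early arousal, with 4416 reads, and in post-reproduction, with 6001 reads. It differs from the miR-122-5p start only at bases changed to G. In late torpor the group next below had 3563 reads and resembles miR-122-5p. The ranks count such groups, and whether their reads are misread miR-122-5p was not tested. All miRNA names here come from general knowledge of the sequences, not from an annotation.

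The reads divided into forms that differ at the 3′ end. The end of the insert was read from the 3′ adapter, which was found within 26 bases in 4099 of 4517 miR-320a-3p reads in early arousal, 3321 of 3607 in late torpor and 5159 of 6012 in post-reproduction. Percentages of forms are given over these reads. The 8 most abundant inserts are shown, with capitals for 3′ bases that the scaffold does not template.
identical: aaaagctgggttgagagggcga
1 A longer: aaaagctgggttgagagggcgaa
T added: aaaagctgggttgagagggcgaT
T after 21 templated bases: aaaagctgggttgagagggcgT
1 A longer, T added: aaaagctgggttgagagggcgaaT
1 base shorter: aaaagctgggttgagagggcg
2 T added: aaaagctgggttgagagggcgaTT
2 A longer: aaaagctgggttgagagggcgaaa

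Reads identical to the 22 nt form numbered 1563 in early arousal, 1399 in late torpor and 2040 in post-reproduction. They made up 38.1% of reads with an insert end in early arousal (36.6 to 39.6), 42.1% in late torpor (40.4 to 43.8) and 39.5% in post-reproduction (38.2 to 40.9). The share was highest in late torpor, where its interval overlapped with that of post-reproduction but not with that of early arousal. With exact adapters only the share was 36.7% in early arousal (35.1 to 38.3), 41.3% in late torpor (39.5 to 43.1) and 37.8% in post-reproduction (36.2 to 39.3), and late torpor then overlapped with neither. The identical reads alone gave 237 TMM-scaled CPM in early arousal, 274 in late torpor and 372 in post-reproduction. Their ratio was 0.638 for early arousal against post-reproduction (0.597 to 0.681) and 0.736 for late torpor against post-reproduction (0.687 to 0.788). The late torpor ratio of identical reads lay above the interval of all reads and short of 1.5-fold, while that of early arousal lay inside it. For early arousal against late torpor the ratio of identical reads was 0.867 (0.806 to 0.932).

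Shorter and longer forms that followed the scaffold were fewer. Shorter ones held 5.27% in early arousal, 5.09% in late torpor and 4.13% in post-reproduction, and the 21 nt insert shown above was 203 of their 216 reads in early arousal, 155 of 169 in late torpor and 201 of 213 in post-reproduction. Their ratio was 0.844 for early arousal against post-reproduction (0.695 to 1.02) and 0.851 for late torpor against post-reproduction (0.691 to 1.05), and both intervals hold 1. Longer ones held 10.5% in early arousal, 10.2% in late torpor and 10.9% in post-reproduction. The scaffold continues with A after the last base, so added A and templated A cannot be told apart. Against post-reproduction, the longer forms had a ratio of 0.636 in early arousal (0.560 to 0.723) and of 0.650 in late torpor (0.567 to 0.745), and both intervals hold the ratio of all reads.

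**Figure D2:**
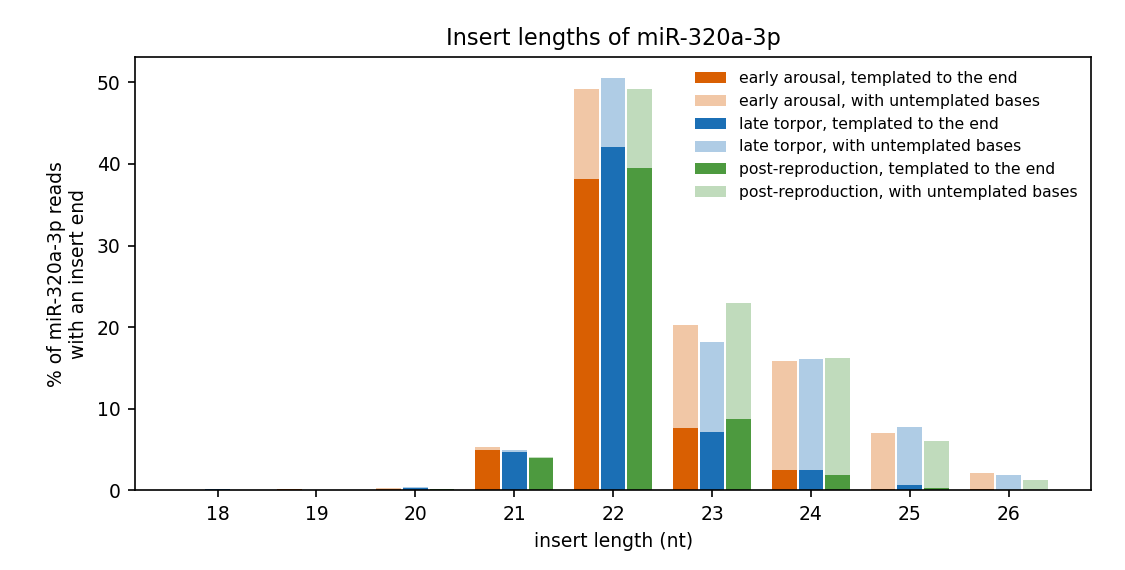
Insert lengths of miR-320a-3p from 18 to 26 nt as a percentage of reads with an insert end, for early arousal, late torpor and post-reproduction; solid parts follow the scaffold to the end and pale parts carry other bases. The 22 nt length leads, at 49.2% in early arousal, 50.6% in late torpor and 49.1% in post-reproduction, and above 22 nt the pale parts exceed the solid ones.

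Reads with an untemplated 3′ tail outnumbered identical reads in early arousal and post-reproduction, but only with tails that contain C or G counted. In late torpor the intervals of both shares overlapped, and their order turned with the adapter match, at 1364 tailed against 1399 identical reads with mismatches allowed and 1236 against 1210 with exact adapters. Tailed reads numbered 1815 in early arousal, 1364 in late torpor and 2272 in post-reproduction, which is 44.3% of reads with an insert end in early arousal (42.8 to 45.8), 41.1% in late torpor (39.4 to 42.8) and 44.0% in post-reproduction (42.7 to 45.4). Most tails were T only, which stands for uridine in the RNA. These held 28.0% in early arousal (26.6 to 29.4), 27.6% in late torpor (26.1 to 29.1) and 26.8% in post-reproduction (25.6 to 28.1). The share of T only tails did not differ between the 3 libraries beyond their intervals. A single T was the usual tail, at 18.9% in early arousal, 18.5% in late torpor and 18.1% in post-reproduction, and 2 T followed at 5.61% in early arousal, 5.72% in late torpor and 5.82% in post-reproduction. The insert with T after 21 templated bases, 251 reads in early arousal, 169 in late torpor and 243 in post-reproduction, can be a trimmed and tailed molecule or one with a substituted last base. Mixed A and T tails held 6.90% in early arousal, 7.14% in late torpor and 5.72% in post-reproduction. Because the scaffold continues with A, an A added to the 22 nt form counts as templated. Tails of A alone could thus be seen only elsewhere. They held 10 reads in early arousal, 5 in late torpor and 9 in post-reproduction, which does not measure how often A was added.

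Tails that contain C or G held 9.17% in early arousal, 6.20% in late torpor and 11.3% in post-reproduction. They numbered 376 reads in early arousal, 206 in late torpor and 583 in post-reproduction. Without them, tailed reads were fewer than identical reads in each library. Misread bases near the end of the insert can be counted among the tails with C or G, and how many are was not tested. All tails other than T only gave a ratio of 0.628 for early arousal against post-reproduction (0.567 to 0.695) and 0.542 for late torpor against post-reproduction (0.483 to 0.608). T only tails had a ratio of 0.689 for early arousal (0.636 to 0.745) and 0.709 for late torpor (0.652 to 0.772), each against post-reproduction. In late torpor the intervals of these 2 kinds of tail did not overlap. Reads without a found insert end had the lowest ratios, 0.408 for early arousal (0.362 to 0.459) and 0.360 for late torpor (0.313 to 0.412), each against post-reproduction. Substitutions near the 3′ end with the last bases intact were sought only in 22 nt inserts. They numbered 76 reads in early arousal, 49 in late torpor and 73 in post-reproduction. In inserts of other lengths the same change was counted as a tail. The late torpor ratio of all reads, 0.644, which counts reads without an insert end, lay below that of identical reads and of T only tails.

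**Figure D3:**
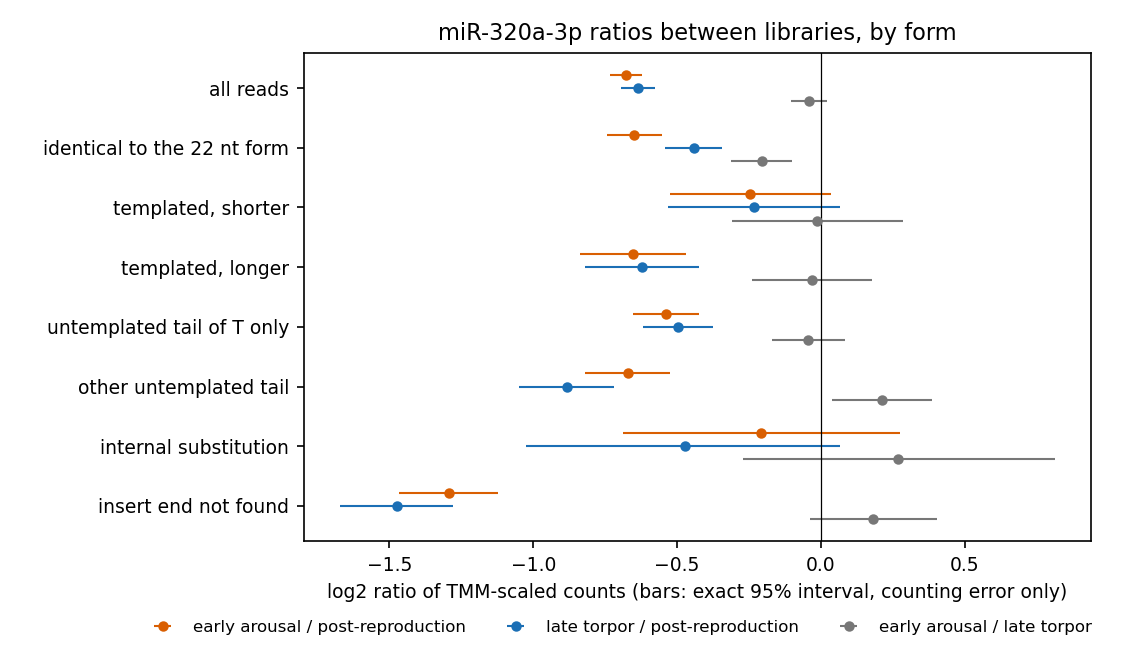
log2 ratios of TMM-scaled miR-320a-3p counts for each form, with exact 95% intervals for counting error, for early arousal against post-reproduction, late torpor against post-reproduction and early arousal against late torpor. Points of both comparisons with post-reproduction lie left of 0 for every form, lowest for reads whose insert end was not found (-1.29 for early arousal and -1.48 for late torpor), and their intervals hold 0 for shorter reads and for internal substitutions.

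T only tails were more frequent on miR-320a-3p than on most abundant starts. Over 53 start groups with at least 1000 inserts in each library, itself included and near copies of more abundant groups left out, the median share of T only tails was 4.60% in early arousal, 6.07% in late torpor and 4.14% in post-reproduction. Groups with a higher share than miR-320a-3p numbered 7 in early arousal, 7 in late torpor and 6 in post-reproduction, and the highest share of any group was 57.6% in early arousal, 55.9% in late torpor and 56.6% in post-reproduction. An added T cannot be seen where the scaffold itself continues with T, so the share is a lower limit for such groups. The order among groups was not tested.

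Read quality differed between the libraries, and its part in the shares of the forms was not tested. Among miR-320a-3p reads, 77.5% in early arousal (76.2 to 78.7), 81.2% in late torpor (79.9 to 82.5) and 64.1% in post-reproduction (62.9 to 65.3) carried the adapter without a mismatch. Among all other reads the share was 72.7% in early arousal, 77.3% in late torpor and 61.1% in post-reproduction, so post-reproduction was the lowest for both. No insert end was found for 9.25% of miR-320a-3p reads in early arousal, 7.93% in late torpor and 14.2% in post-reproduction. At base 24 of the read, within the adapter of 22 nt inserts, 1.98% of miR-320a-3p reads in early arousal, 1.37% in late torpor and 6.47% in post-reproduction differed from the adapter. In other reads this base differed in 2.26% in early arousal, 1.14% in late torpor and 8.59% in post-reproduction, so the mismatches were not limited to miR-320a-3p. Both sets hold only reads with at most 1 mismatch in the adapter, so worse reads are left out. With exact adapters only, 3500 miR-320a-3p reads in early arousal, 2929 in late torpor and 3853 in post-reproduction were left. Scaled plainly to all reads with an exact adapter, these gave 858 CPM in early arousal, 647 CPM in late torpor and 1124 CPM in post-reproduction. The ratio was then 0.763 for early arousal against post-reproduction (0.729 to 0.799) and 0.576 for late torpor against post-reproduction (0.549 to 0.604), next to 0.752 and 0.575 with all reads in plain CPM.

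**Figure D4:**
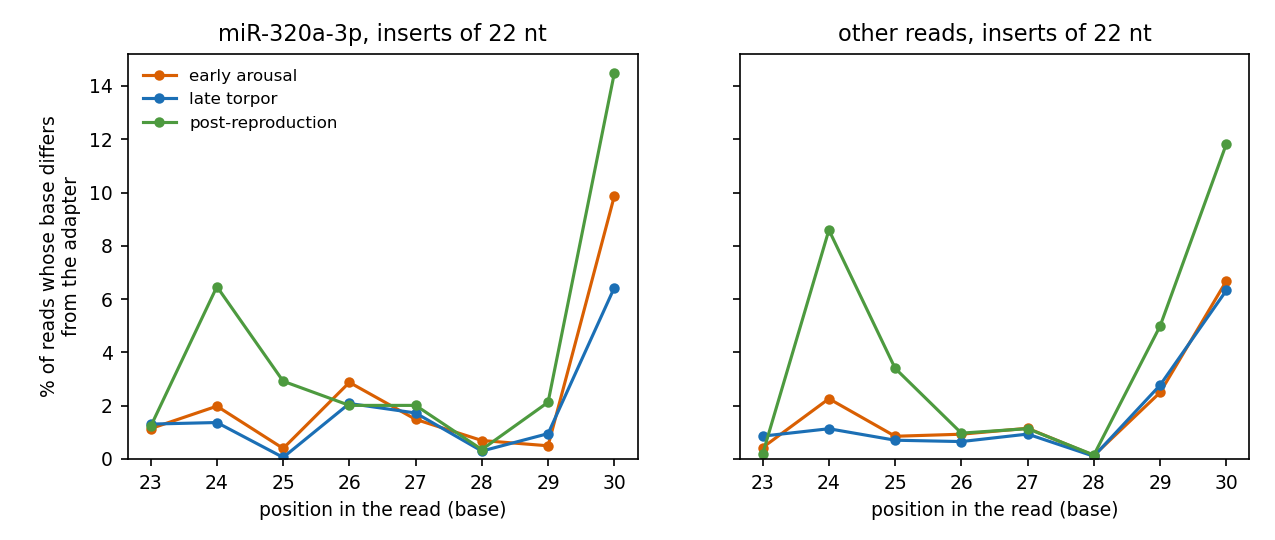
Percentage of reads with 22 nt inserts whose base differs from the adapter, by position in the read from 23 to 30, for miR-320a-3p (left) and all other reads (right) in early arousal, late torpor and post-reproduction. The post-reproduction library stands above the others at base 24 (6.47% left, 8.59% right) and at base 30 (14.5% left, 11.8% right).

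The 5′ end of miR-320a-3p was sharp in each library. Of the reads that overlap its locus, 91.0% in early arousal (90.2 to 91.8), 89.8% in late torpor (88.8 to 90.7) and 90.6% in post-reproduction (89.8 to 91.2) began at the base of the listed form, and the shares did not differ beyond their intervals. A read that starts elsewhere carries another seed, so each start is shown in the form that ends at the same base, with its own bases 2 to 8 in capitals.
1 base earlier: gAAAAGCTgggttgagagggcga
listed start: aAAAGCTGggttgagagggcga
1 base later: aAAGCTGGgttgagagggcga
2 bases later: aAGCTGGGttgagagggcga

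The start 1 base later was the most frequent of the shifted ones, with 302 reads in early arousal, 268 in late torpor and 406 in post-reproduction, which is 6.09% of reads at the locus in early arousal, 6.67% in late torpor and 6.12% in post-reproduction. The start 2 bases later held 78 reads in early arousal, 78 in late torpor and 114 in post-reproduction, and the start 1 base earlier 62 in early arousal, 60 in late torpor and 105 in post-reproduction. Each of these 3 starts had its most reads in post-reproduction, as the listed start did. Starts still later had at most 2 reads per start and library. Within 200 bases on either side, where a partner 5p arm of the hairpin would lie, the table listed 0 other reads on either strand. A count of 0 allows up to 3 reads per library, which is 0.455 TMM-scaled CPM in early arousal, 0.587 in late torpor and 0.547 in post-reproduction. This bound covers only RNA that the library method captures, and whether it captures a 5p arm with a cap was not tested. The nearest other placed read on this scaffold was 1313 bases away.

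Among 163 other start groups with at least 1000 reads over the 3 libraries, those nearest to miR-320a-3p in both log2 ratios against post-reproduction were found by Euclidean distance. This likeness rests on 3 libraries and is a description. The 5 nearest are shown because several are variants of other abundant miRNAs.
nearest group: tggagtgtgagaatggtg
next, miR-378a-3p shifted by 1 base: ctggacttggagtcagaa
next, miR-199a-3p shifted by 1 base: tacagtagtctgcacatt
next, unnamed: tgaactattgtagtagcc
last, miR-378a-3p: actggacttggagtcaga

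The nearest, at a distance of 0.026 on the log2 scale, had 4128 reads in early arousal, 3294 in late torpor and 5424 in post-reproduction. It differs from the miR-122-5p start by C11G, counted from 1 at the 5′ end with the base of miR-122-5p first, and the miR-122-5p start had 992 times as many reads. By the rule used for the tails it is a near copy of miR-122-5p, and near copies were kept in this list. Whether its reads are misread miR-122-5p was not tested. miR-378a-3p, encoded within the gene of the metabolic coactivator Ppargc1b in mouse, had 16230 reads in early arousal, 16619 in late torpor and 23256 in post-reproduction. Its ratio was 0.581 for early arousal and 0.767 for late torpor, each against post-reproduction. The shifted start of miR-199a-3p had a ratio of 0.586 for early arousal and 0.763 for late torpor, and the unnamed group 0.520 for early arousal and 0.670 for late torpor, each against post-reproduction. All but the nearest lay between 0.246 and 0.274 from miR-320a-3p.

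Other miRNAs made without Drosha, DGCR8 or Dicer were looked up by their first 9 bases after the files had been seen, since no miRNA table was at hand. miR-484, which like miR-320 has a capped hairpin in mouse, had 1 read in early arousal, 0 in late torpor and 2 in post-reproduction, too few for a ratio. miR-1224-5p, a mirtron whose hairpin is released by splicing, had 85 reads in early arousal, 64 in late torpor and 41 in post-reproduction. Its ratio was 1.73 for early arousal (1.18 to 2.57) and 1.67 for late torpor (1.11 to 2.54), each against post-reproduction, on the other side of 1 from miR-320a-3p. miR-451a, a red-cell miRNA cut by Argonaute 2 in place of Dicer, had 443 reads in early arousal, 744 in late torpor and 356 in post-reproduction. Its ratio was 1.04 for early arousal (0.899 to 1.19) and 2.24 for late torpor (1.97 to 2.55), each against post-reproduction. A start read as miR-668-3p had 0 reads in early arousal, 1 in late torpor and 0 in post-reproduction.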

How the data were processed

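Small RNA of 18 to 30 nt was gel-cut, ligated to adapters and amplified by PCR, per the labels' protocols. The authors' deposited table lists genome positions and, at each, text entries that hold a sequence, its raw read count and its stage, with the placed part in capitals, per the file headers. No aligner, build or filter is given in the sources used here. Reads are 30 bases long. A sequence placed several times was counted once per stage.

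The miRNA was identified by base 1 and the seed of miR-320, from general knowledge and not checked against a database, and its first 22 bases were taken as the mature form. Insert ends were sought at 18 to 26 nt with up to 1 mismatch per 5 adapter bases read. TMM factors (30% trimmed on ratio, 5% on abundance) came from own code over 824 groups of reads sharing 18 bases, with at least 100 reads over the 3 libraries, in place of annotated miRNAs. They were 1.17 for early arousal, 0.872 for late torpor and 0.977 for post-reproduction. The groups include fragments of other RNAs and misread copies of abundant miRNAs. Near copies are groups within 2 mismatches of one with at least 20 times as many reads. Intervals are exact binomial (Clopper-Pearson) for shares, conditional binomial for ratios and Poisson for levels. Code ran in Python 3.11.15 with numpy 2.4.6, scipy 1.17.1 and matplotlib 3.10.9, and was tested on simulated data.

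Named items were set by rule: the miRNA, its 8 most abundant inserts, the 5 groups nearest in pattern with at least 1000 reads, its neighbours by rank, and miRNAs made without Drosha, DGCR8 or Dicer, of which 4 were looked up and the others not analysed here. The members and lists were chosen with earlier results of these data known. Alternatives changed the reads counted, the scaling, the adapter match and the minimum count.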

Additional observations from a re-analysis of the deposited data

How the results depend on the processing

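Both comparisons with post-reproduction kept their direction under the 12 alternatives run for each, with log2 ratios from -0.70 to -0.39 for early arousal and from -0.80 to -0.44 for late torpor. The alternative that left out multiply placed reads could not change a ratio, since no miR-320a-3p read was placed more than once. Alternatives that did not pass 1.5-fold are named beside the counts of groups in the report. Outside the reported counting interval lay identical reads only (-0.44 in late torpor), identical reads with templated length variants (-0.62 in early arousal, -0.46 in late torpor), plain CPM (-0.41 and -0.80) and plain CPM without the miR-122-5p start (-0.55 and -0.72). So did a pair of settings chosen after seeing the data, exact adapters only (-0.39 and -0.80) and TMM over 64 groups with at least 1000 reads in each library (-0.54 and -0.55). The settings with identical reads, alone or with length variants, leave out reads without an insert end, which were most frequent in post-reproduction.

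Early arousal against late torpor, at -0.04, changed sign in plain CPM (0.39), without the miR-122-5p start (0.17), with no minimum count in the scaling (0.025), with exact adapters (0.41) and over the 64 groups (0.0078). It was -0.21 with identical reads and -0.16 with length variants added. The cause was not tested. With insert ends taken from the placed part, so that tails no longer count, identical reads were 53.0% in early arousal, 57.1% in late torpor and 55.9% in post-reproduction. With no adapter mismatch they were 36.7% in early arousal, 41.3% in late torpor and 37.8% in post-reproduction.

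Groups at least 1.5-fold lower than in post-reproduction were counted again with a minimum of 10 reads. They were 1168 of 3738 in place of 142 of 607 in early arousal, and 1121 of 3454 in place of 159 of 580 in late torpor. In plain CPM they were 100 of 607 in early arousal and 186 of 580 in late torpor. Groups at least 1.5-fold higher in early arousal than in late torpor were 897 of 3554 in place of 105 of 586, and 218 of 586 in plain CPM. Scaling over annotated miRNAs was not run. No paired analysis was possible because each stage has 1 library. Pooling hides the spread between animals.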
